A study of Homo sapiens with 6 samples.

Results

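The messages of 8 red cell membrane and blood group genes, XK, KEL, RHAG, GYPB, GYPE, GYPC, EPB41 and ANK1, were followed in RNA-seq of K562 cells, a human leukaemia line that carries Bcr-Abl and has erythroid features. They were taken as the rows whose RefSeq protein accession belongs to these genes, which gave 38 of the 109018 accession rows in the table. The 8 genes are among the 19049 for which a symbol was found. Both groups were K562 lines made with a lentiviral short hairpin vector: 3 libraries came from cells with a hairpin against a long noncoding RNA, named lncRNA-IIRX in the labels (sh-lncRNA-IIRX), and 3 from cells with a hairpin against luciferase (sh-luc), which has no target in human cells. The groups thus differ in their hairpin, and each is a derived line of its own, so that the hairpin and the history of the line cannot be told apart. The comparison asks how these messages differed between the groups. The table lists protein accessions, so the level of the targeted RNA itself was not analysed here.

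Some of these proteins help to hold the red cell membrane to its skeleton. A net of spectrin and short actin filaments lies under the membrane and is tied to it at an ankyrin complex, where ANK1 joins spectrin to the anion exchanger SLC4A1 and to the Rh complex, and at a junctional complex, where the EPB41 product joins spectrin and actin to glycophorin C. Many of the membrane proteins in these complexes carry blood group antigens: KEL, a metalloprotease that carries the Kell antigens, is linked by a disulfide bond to the membrane protein XK, RHAG is needed for the Rh proteins to reach the surface, and glycophorin B, the product of GYPB, carries antigens of the MNS group. GYPE is a close relative of GYPB that arose by duplication.

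The sequences just upstream of 4 of the genes are shown here because they hold the letters that the erythroid factor GATA1 is known to recognise, and because those of GYPB and GYPE are nearly the same although the values of these genes, given further on, differ. They are from RefSeq, build GRCh38.p14, written 5′ to 3′ along the gene's own strand, and capitals mark AGATAA or TGATAA on either strand.
GYPB: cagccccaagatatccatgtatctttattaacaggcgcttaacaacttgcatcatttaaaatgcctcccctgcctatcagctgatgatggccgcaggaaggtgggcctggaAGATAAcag
GYPE: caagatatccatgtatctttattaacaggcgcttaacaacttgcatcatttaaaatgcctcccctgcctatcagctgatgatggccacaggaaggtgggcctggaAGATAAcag
KEL: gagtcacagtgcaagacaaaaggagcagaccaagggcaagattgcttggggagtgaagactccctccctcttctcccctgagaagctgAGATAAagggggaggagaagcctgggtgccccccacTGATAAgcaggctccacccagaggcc
RHAG: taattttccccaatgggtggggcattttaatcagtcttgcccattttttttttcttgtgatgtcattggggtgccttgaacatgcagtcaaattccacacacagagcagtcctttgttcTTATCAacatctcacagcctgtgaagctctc
The GYPB stretch is chr4:144019376-144019495 and the GYPE stretch chr4:143905596-143905709, and the KEL and RHAG stretches are chr7:142962364-142962513 and chr6:49636840-49636989, all on the minus strand. In the 150 bases before the start, AGATAA or TGATAA was found in 4 of the 8 promoters read for 6 member genes. KEL had both and the other start site of GYPB none. XK had no entry in the promoter reference, and ANK1 was left out of this reading. Among all 35116 promoters of that length 8.52% had these letters. The 8 include overlapping windows of GYPB and that of its close relative GYPE, so the shares cannot be compared. RHAG has TGATAA on the opposite strand, so that its capitals read TTATCA. GYPC and EPB41 did not have these letters in this window. Over the 114 aligned bases shown, GYPB and GYPE were identical at 113. A match of letters is a description of the sequence and was not tested as a site of binding. With the TMM scaling described below, the message of GATA1 itself was lower in the sh-lncRNA-IIRX libraries (log2 fold change −0.40, adjusted p = 0.00433 by edgeR). Relative to length and total reads its groups overlapped, at 48.8 to 60.9 RPKM in sh-luc and 43.3 to 56.8 RPKM in sh-lncRNA-IIRX. The part of GATA1 in the member genes' values was not tested.

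The libraries held 21023739 to 23320543 reads in sh-luc and 24325122 to 31481109 in sh-lncRNA-IIRX, counted over all rows. The member rows took 0.0797% to 0.0846% of them in sh-luc and 0.0983% to 0.114% in sh-lncRNA-IIRX. Libraries 2 and 3 of each group are numbered as 1 series in the sample descriptions and library 1 as another, so values within each series are given where they bear on a result. The extraction note speaks of separate groups of cells, but p-values here measure only the spread between these libraries. Erythroid identity was checked with 13 erythroid and K562 markers, and all had enough reads to be tested. Their summed level was 25191 to 28287 RPKM (reads relative to length and library size) in sh-luc and 19799 to 20882 RPKM in sh-lncRNA-IIRX. With TMM scaling, 2 were called higher in sh-lncRNA-IIRX (TFRC and TAL1) and 8 lower (the 6 globin genes listed, GATA1 and NFE2). In RPKM the groups of GATA1 overlapped, as did those of NFE2, at 148 to 176 in sh-luc and 135 to 164 in sh-lncRNA-IIRX. The part of these markers in the members' values was not tested. Markers of other blood cells were at or near 0: the 6 megakaryocyte markers summed to at most 2.49 RPKM with PF4 and PPBP at 0, the monocyte pair to at most 0.0585 RPKM and the T cell pair to at most 0.816 RPKM, and both neutrophil markers were at 0. Of these, ITGA2B, with 64 to 96 reads in a library, was lower in sh-lncRNA-IIRX. Of the epithelial pair, EPCAM was read at a mean of 97.5 RPKM over the 6 libraries and KRT5 at 0.00447 RPKM. In bulk RNA, fewer cells expressing a gene and less of its RNA per cell cannot be told apart.

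RHAG was the most abundant of the member messages and EPB41 the least when each gene is represented by its row with the most reads and levels are given per length. That row was at 255.8 to 261 RPKM in sh-luc for RHAG, at 127 to 168 for GYPB, at 115 to 126 for GYPC and at 54.6 to 58.6 for GYPE. KEL followed at 28.7 to 34.4 RPKM and XK at 14.1 to 15.8, and the skeleton genes were far below at 1.35 to 1.73 for ANK1 and 0.671 to 1.01 for EPB41. The range of each gene was apart from that of the next in sh-luc. In sh-lncRNA-IIRX the order was kept apart from 1 pair: KEL, at 28.4 to 35.1 RPKM, overlapped XK, at 30.9 to 40.5 RPKM. Both ends of the order rest on the use of a single row. Summed over all rows of a gene, RHAG, at 385 to 399 RPKM in sh-luc, overlapped GYPB, at 342 to 431 RPKM, and in sh-luc library 1 GYPB was the higher of them. The reads of EPB41 are spread over 15 rows, and, summed over all rows of a gene, EPB41 was at 11.9 to 12.5 RPKM in sh-luc and ANK1 at 8.38 to 12.3 RPKM, which overlap.

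**Figure D1:**
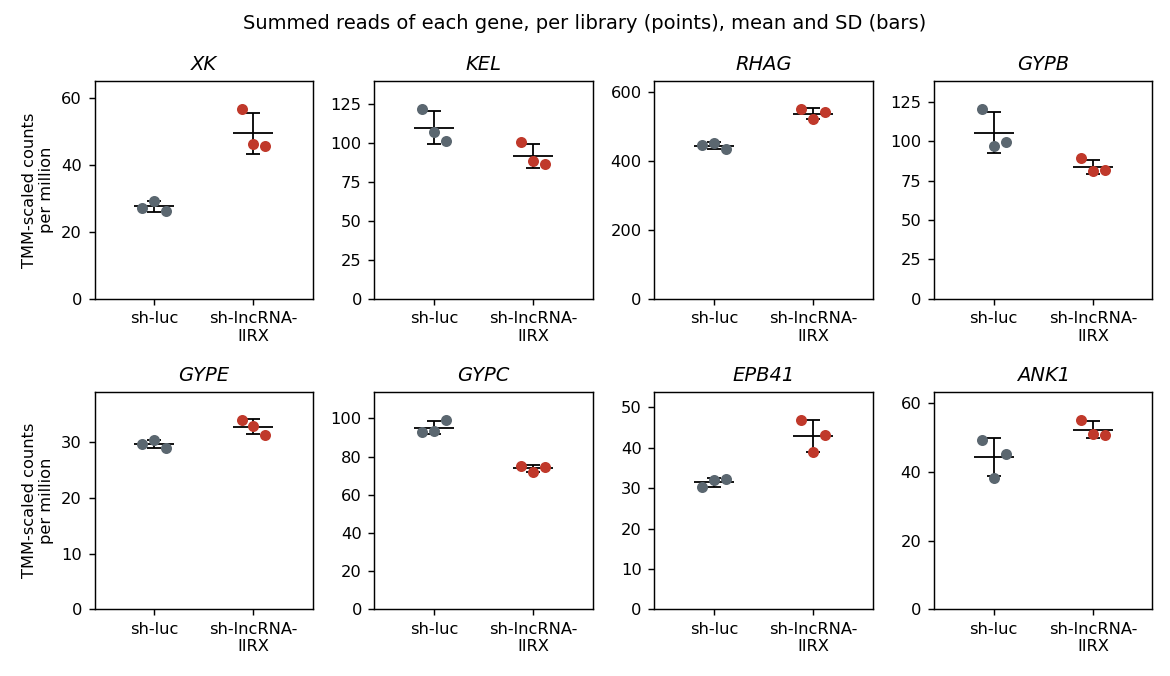
Reads summed over the rows of each gene, in TMM-scaled CPM, counts relative to library size (vertical axes, each from 0), for the 3 sh-luc and the 3 sh-lncRNA-IIRX libraries (points), with the mean and SD (bars). XK sits between 26.2 and 29.3 in sh-luc and between 45.6 and 56.5 in sh-lncRNA-IIRX, while KEL, GYPB and GYPC sit lower in sh-lncRNA-IIRX than in sh-luc.

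For the comparison, reads were summed over the rows of each gene and scaled by TMM, a method that sets the bulk of the genes level between libraries, and edgeR's quasi-likelihood test was run over all 32188 rows with enough reads, and p-values were adjusted over all of them (Benjamini-Hochberg) and called under 0.05. All 8 member genes passed the minimum. XK, EPB41 and RHAG were higher in sh-lncRNA-IIRX and KEL, GYPB and GYPC lower, which makes 6 of 8 called, while GYPE and ANK1 did not pass. Of all rows tested 32.1% were called, and of the 11554 genes with a symbol 44.1%, with 20.9% higher and 23.2% lower. In TMM-scaled CPM the groups did not overlap for any of the 8 members, and 53.3% of the genes with a symbol also had groups that did not overlap. Change was thus common among all genes, and calls at the members are to be read against it. Relative to total reads, the groups of KEL, GYPB and GYPC overlapped, and those of the other 5 members did not. The calls of the lower genes depend on the scaling: relative to total reads, KEL, GYPB and GYPC stayed below 0 but did not pass, the median of all rows was 0.27 on the log2 scale rather than 0.02, and 5 members were called higher and 0 lower (10906 higher and 2150 lower among all rows, against 5111 and 5216 with TMM).

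XK, a multipass membrane protein whose loss gives the McLeod phenotype with misshapen red cells, showed the largest change among the members. Its reads lie on chrX:37685791-37732130 of hg38 (plus strand, GENCODE 44), and its summed reads were 584, 567 and 508 in sh-luc and 2019, 1189 and 1204 in sh-lncRNA-IIRX. In TMM-scaled CPM these were 27.1, 29.3 and 26.2 against 56.5, 46.2 and 45.6, so that every sh-lncRNA-IIRX library was above every sh-luc library and library 1 was the highest. The means were 27.5 ± 1.58 and 49.4 ± 6.13 (SD, n = 3 each), and the log2 fold change was 0.85 (SE 0.097) with an edgeR adjusted p of 6.56e-06. XK passed under each of the 17 alternatives in which it was fitted, with log2 fold changes between 0.74 and 1.10. Within the label series it was 1.06 for library 1 against library 1, and 0.73 for libraries 2 and 3.

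KEL, the partner of XK at the cell surface, did not rise with it. It lies on chr7:142941114-142962363 (minus strand), and its TMM-scaled CPM were 121, 107 and 100.9 in sh-luc and 100.4, 88.3 and 86.3 in sh-lncRNA-IIRX. The groups met closely, the highest sh-lncRNA-IIRX library lying just under the lowest sh-luc library. The log2 fold change was −0.26 (SE 0.089, edgeR adjusted p = 0.0331). This call was lost when sh-luc library 1 (−0.18, adjusted p = 0.159), sh-luc library 2, sh-lncRNA-IIRX library 2 or sh-lncRNA-IIRX library 3 was left out, with adjusted p between 0.0604 and 0.159 by edgeR, although the value stayed at −0.28, −0.25 and −0.23 in the last 3 of these. It was also lost with total reads (−0.014, adjusted p = 0.923), where KEL stood below the median of all rows. With a term for the label series KEL was at −0.26 and passed (adjusted p = 0.000344 by edgeR). Within the series it was −0.27 for library 1 and −0.25 for libraries 2 and 3. Of the 17 alternatives KEL passed in 9.

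RHAG, the ammonium channel protein at the centre of the Rh complex, was the member with the most reads. Its gene is at chr6:49605175-49636839 (minus strand), and its summed reads were 9582, 8750 and 8387 in sh-luc and 19599, 13368 and 14304 in sh-lncRNA-IIRX. In TMM-scaled CPM it was at 445, 452 and 433 against 549, 519.7 and 541. The sh-lncRNA-IIRX libraries were all higher, with little spread in either group. The log2 fold change was 0.28 (SE 0.071, edgeR adjusted p = 0.00655), and it was 0.30 and 0.26 within the label series. Of the other proteins of the Rh complex, RHD was at −0.29 (adjusted p = 0.0438), a call that was kept in 1 of 6 fits with a library left out, without sh-lncRNA-IIRX library 1, and lost in the others (adjusted p 0.0579 to 0.160), with DESeq2 (adjusted p = 0.0751) and with total reads (−0.042, adjusted p = 0.787). With a term for the label series RHD was at −0.29 and passed (adjusted p = 0.0163 by edgeR). RHCE, at −0.05 (adjusted p = 0.767), and CD47, at −0.21 (adjusted p = 0.0808), did not pass. ICAM4, which carries the LW antigen, was lower, at −0.49 (adjusted p = 0.00155 by edgeR), but lost its call with total reads (−0.25, adjusted p = 0.0909).

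GYPB and GYPE lie side by side on the minus strand, at chr4:143996104-144019380 and chr4:143870864-143905563, and their values went apart. GYPB was at 120.4, 97.0 and 99.5 TMM-scaled CPM in sh-luc and at 89.2, 80.9 and 81.8 in sh-lncRNA-IIRX. Sh-luc library 1 was the highest by a wide margin, but the groups did not overlap on this scale. Relative to total reads they overlapped. The log2 fold change was −0.33 (SE 0.090, edgeR adjusted p = 0.00979), and without sh-luc library 1 it was −0.23 (adjusted p = 0.0646). GYPE was at 29.6, 30.3 and 28.9 in sh-luc and at 33.9, 32.9 and 31.2 in sh-lncRNA-IIRX. These groups did not overlap on either scale, but the log2 fold change of 0.14 with TMM (SE 0.083, edgeR adjusted p = 0.208) did not pass. The reads of these genes are uncertain where their coding sequences are alike. Of the 50-base windows of GYPB, 13.6% were found unchanged in other genes, GYPE among them. Of those of GYPE, 7.11% were found in GYPB, whereas none of the windows of the other 6 members was found in another gene. Only exact matches were counted, so the share of uncertain reads may be larger.

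At the junctional complex the membrane protein and its skeletal partner also went apart. GYPC, which carries the Gerbich antigens and lies on chr2:126656133-126696667 (plus strand), was at 92.8, 93.2 and 99.1 TMM-scaled CPM in sh-luc and at 75.3, 71.9 and 74.6 in sh-lncRNA-IIRX. The groups were well apart on this scale but overlapped relative to total reads. With TMM the log2 fold change was −0.36 (SE 0.076, edgeR adjusted p = 0.00159). EPB41, on chr1:28887091-29120046 (plus strand), was at 30.2, 31.9 and 32.3 in sh-luc and at 46.8, 38.9 and 43.0 in sh-lncRNA-IIRX. Here the groups did not overlap on either scale, and the log2 fold change with TMM was 0.45 (SE 0.089, edgeR adjusted p = 0.00105). Within the label series EPB41 was at 0.63 for library 1 and 0.35 for libraries 2 and 3, and GYPC at −0.30 and −0.39. MPP1, which binds both proteins, was at 0.05 and did not pass (adjusted p = 0.635 by edgeR).

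ANK1, the ankyrin of the red cell, lies on chr8:41653220-41896741 (minus strand). It was at 49.2, 38.3 and 45.2 TMM-scaled CPM in sh-luc and at 55.0, 51.1 and 50.6 in sh-lncRNA-IIRX. The highest sh-luc library came close to the lowest sh-lncRNA-IIRX library. The log2 fold change of 0.24 (SE 0.094) did not pass (edgeR adjusted p = 0.0605), and in the fits with a library left out it passed in 1 of 6, without sh-luc library 1 (0.32, adjusted p = 0.0198), while without sh-luc library 2 it was 0.15 (adjusted p = 0.284). With a term for the label series it was 0.24 and passed (adjusted p = 0.00364 by edgeR), and within the series it was 0.16 for library 1 and 0.29 for libraries 2 and 3. Its partners at this complex were no clearer: the beta spectrin SPTB, at 0.17 (adjusted p = 0.152), did not pass, and the anion exchanger SLC4A1 and EPB42, which binds it, had only 10 to 45 and 23 to 62 reads in a library and did not pass.

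**Figure D2:**
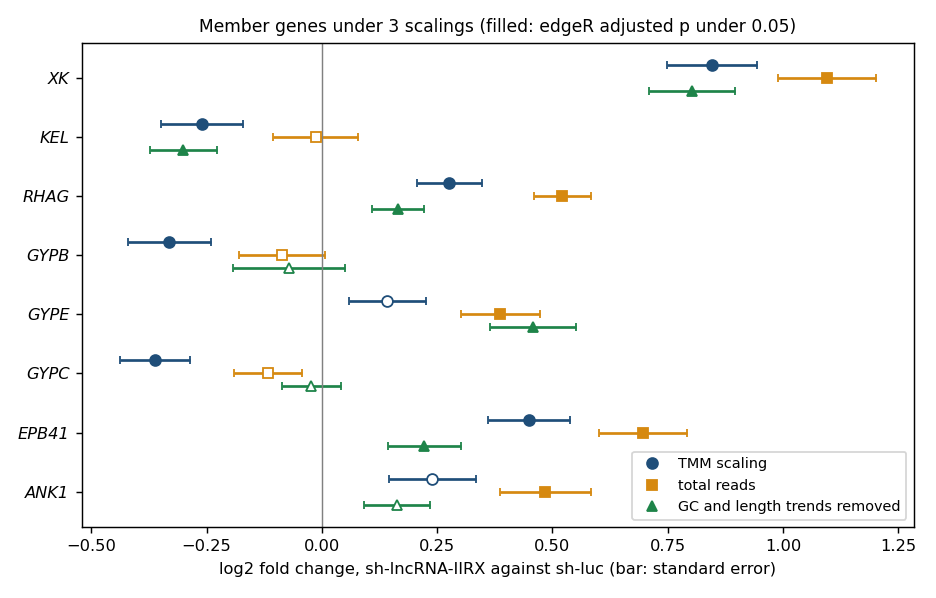
Log2 fold change, sh-lncRNA-IIRX against sh-luc (horizontal axis), with its standard error (bars), for each member gene under TMM scaling, total reads, and TMM with trends on GC content and coding length removed; filled symbols passed an adjusted p of 0.05 in edgeR. XK, RHAG and EPB41 lie above 0 and are filled under all 3, while GYPB and GYPC, at −0.33 and −0.36 with TMM, lie near 0 and are open under the other settings.

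The values also moved with base composition and length. Over the genes with a coding sequence in the reference, the median log2 fold change fell from 0.16 in the fifth of genes with the lowest GC content to −0.12 in the fifth with the highest. With each library's trends on GC content and coding length removed, a choice made after the data were seen, GYPC was at −0.023 (adjusted p = 0.806) and GYPB at −0.071 (adjusted p = 0.676), so that neither call remained. Both have short coding sequences, 384 and 273 bases. GYPE, of 234 bases, was then higher, at 0.46 (adjusted p = 0.00279). XK, at 0.80 (adjusted p = 9.34e-05), KEL, at −0.30 (adjusted p = 0.00685), RHAG, at 0.17 (adjusted p = 0.0339), and EPB41, at 0.22 (adjusted p = 0.0421), passed in the same direction as before, and ANK1, at 0.16 (adjusted p = 0.0901), did not pass. All these adjusted p-values are from edgeR. Of the calls at the 8 members, those of XK, RHAG and EPB41 passed in the same direction under all 3 scalings, as did none of the lower genes.

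**Figure D3:**
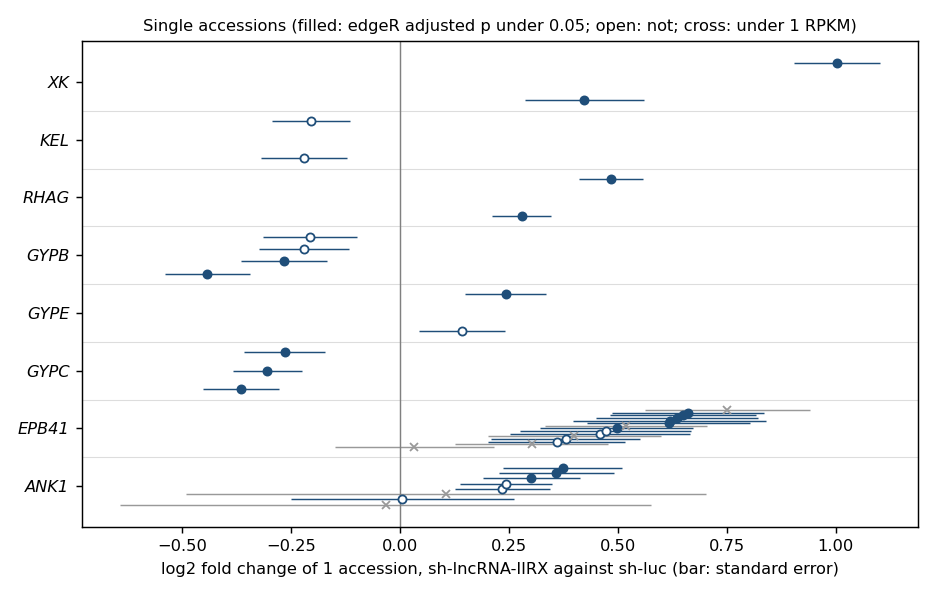
Log2 fold change of each accession, sh-lncRNA-IIRX against sh-luc (horizontal axis), with its standard error (bars), by gene; filled circles passed an adjusted p of 0.05 in edgeR, open circles did not, and crosses mark 7 accessions under 1 RPKM whose values come from the fit of all accessions. The XK accessions lie at 1.00 and 0.42 and the tested EPB41 accessions between 0.36 and 0.66. Most of the latter reached a mean of 1 RPKM only through sh-lncRNA-IIRX, and the EPB41 crosses run from 0.03 to 0.75.

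Read singly, the accessions of a gene mostly moved with their sum. Of the 38 accessions, 31 had a mean of at least 1 RPKM, and 19 of these were called, 14 higher and 5 lower, where 37.3% of all 38204 accessions tested were called. The 7 under the minimum were 5 of EPB41 and 2 of ANK1. Both accessions of RHAG were higher (0.28 for NP_000315.2 and 0.48 for XP_011513090.1), as were 6 of the 10 tested for EPB41 and 3 of the 6 tested for ANK1. All 3 of GYPC were lower, at −0.37 to −0.27, and 2 of the 4 of GYPB, NP_002091.3 and NP_001291311.1, the latter at −0.44. Neither of the KEL accessions passed in the fit of accessions, although their sum did in the fit of genes. Of the GYPE pair, which have the same length, NP_002093.2 was higher at 0.24 (edgeR adjusted p = 0.0484) and NP_941391.2, at 0.14, did not pass. The 2 fits have their own TMM scaling and rows, so their calls are not on 1 scale. With a single accession per gene in the fit of genes, KEL passed (−0.25, adjusted p = 0.0377) and GYPE did not (0.19, adjusted p = 0.131 by edgeR). The EPB41 accessions are thin, the tested ones averaging 0.732 to 1.02 RPKM in sh-luc and 1.27 to 1.57 RPKM in sh-lncRNA-IIRX. Most of these thus reached the minimum of 1 RPKM only through the group where they were higher. The count and range of their rises are therefore partly set by the minimum and are no support for the rise of the sum. The EPB41 accessions under the minimum ran from 0.03 to 0.75 in the fit of all accessions. The rows of a gene can hold the same reads, so they are not independent measurements.

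The accessions of XK, among those tested, were further apart in the size of their change than those of any other member, although EPB41 accessions under the minimum ran wider. NP_066569.1, the long form, had 466, 449 and 395 reads in sh-luc and 1703, 1004 and 1038 in sh-lncRNA-IIRX, a log2 fold change of 1.00 (edgeR adjusted p = 6.64e-07). XP_011542280.1, of 603 bases against 1335, had 118, 118 and 113 reads against 316, 185 and 166, a log2 fold change of 0.42 (edgeR adjusted p = 0.0206). Both were higher in every sh-lncRNA-IIRX library. Tested against the rest of its gene, XP_011542280.1 differed by −0.47, which did not pass (edgeR adjusted p = 0.282), and 0 of the 31 member accessions passed this test, where 0.992% of the 23295 accessions tested did. It did pass without sh-lncRNA-IIRX library 1 (−0.52, adjusted p = 0.0392) and with a term for the label series (−0.47, adjusted p = 0.0402 by edgeR).

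**Figure D4:**
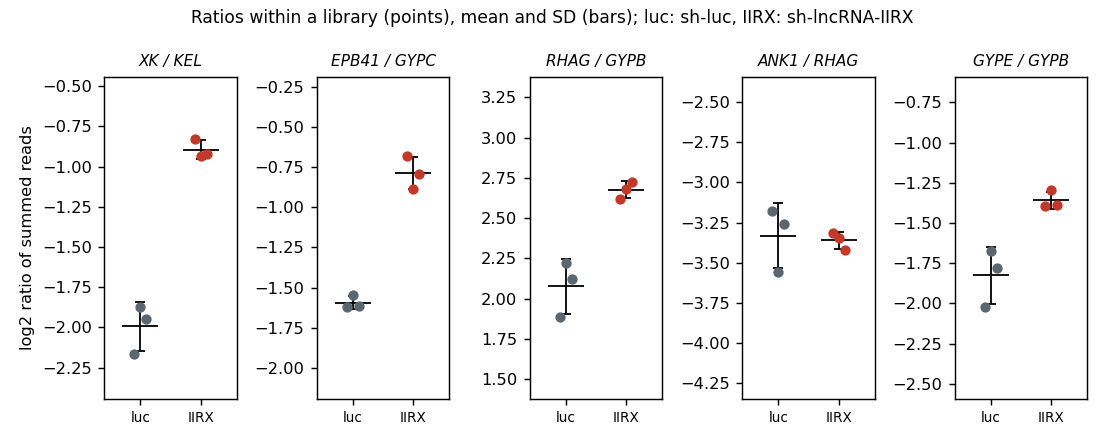
Log2 ratio of the summed reads of partner or paralogue genes within each library (vertical axes, each spanning 2 log2 units), for the 3 sh-luc (luc) and 3 sh-lncRNA-IIRX (IIRX) libraries (points), with mean and SD (bars). In 4 of the 5 panels the groups do not overlap, XK over KEL moving by 1.10, and ANK1 over RHAG overlaps.

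Ratios of reads within a library are the same under TMM and total reads, but not with the trends on GC content and coding length removed. The pairs were chosen after the members' values were seen, so the ratios are a description with no test. The log2 ratio of XK to KEL was −2.16, −1.87 and −1.95 in sh-luc and −0.83, −0.93 and −0.92 in sh-lncRNA-IIRX, a difference of 1.10. Each sh-lncRNA-IIRX library thus held more XK reads for its KEL reads than any sh-luc library. EPB41 to GYPC differed by 0.81, from a mean of −1.59 ± 0.042 to −0.79 ± 0.10 (SD, n = 3 each), RHAG to GYPB by 0.60 and GYPE to GYPB by 0.47. The groups did not overlap for these 4 ratios. With the trends removed the difference was 1.10 for XK to KEL and 0.53 for GYPE to GYPB, but 0.25 for EPB41 to GYPC and 0.24 for RHAG to GYPB. The ratio of ANK1 to RHAG, at −3.33 ± 0.20 in sh-luc and −3.36 ± 0.052 in sh-lncRNA-IIRX (SD, n = 3 each), overlapped.

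**Figure D5:**
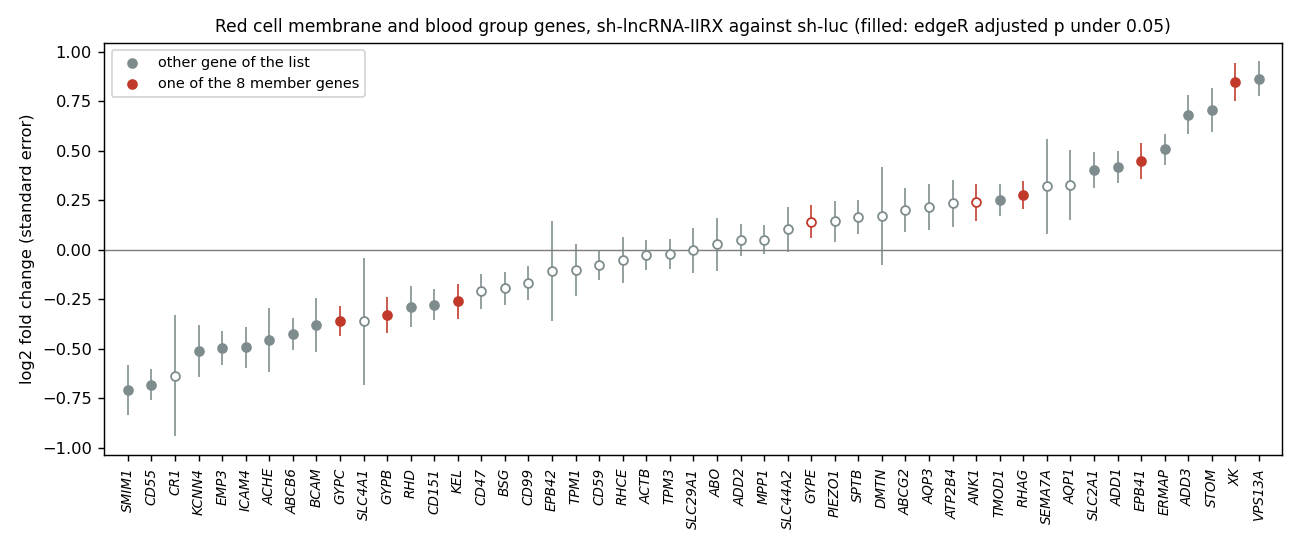
Log2 fold change, sh-lncRNA-IIRX against sh-luc (vertical axis), with its standard error (bars), of 49 of the 51 tested genes of the red cell membrane and blood group list in order of size, the member genes in red; filled points passed an adjusted p of 0.05 in edgeR. XK lies second from the top, at 0.85, next to VPS13A, at 0.86.

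The members were set beside a list of 60 genes of the red cell membrane and the blood groups, members included, of which 51 had enough reads to be tested. In that list 24 genes were called, 11 higher and 13 lower, with a median log2 fold change of 0.03, and among the 43 tested genes that are not members 18 were called, 8 higher and 10 lower, with a median of −0.0013. These are 47.1% and 41.9% called, near the 44.1% of all genes with a symbol, and the 25.5% and 23.3% lower are near the 23.2% of all, so that the counts are no result about the list. The median over all genes with a symbol was −0.02. VPS13A, a lipid transfer protein that binds XK, was at 27.7, 29.5 and 29.5 TMM-scaled CPM in sh-luc and at 55.5, 48.0 and 54.1 in sh-lncRNA-IIRX, with a log2 fold change of 0.86 (SE 0.087, edgeR adjusted p = 1.76e-06). With TMM scaling it thus rose by nearly the same amount as XK. Its value with the trends on GC content and coding length removed is not given here. Others that rose were STOM, the membrane protein stomatin, at 0.71 (adjusted p = 0.000128), ADD3 and ADD1, subunits of adducin, which caps actin filaments and binds them to spectrin, at 0.68 (adjusted p = 6.17e-05) and 0.42, and ERMAP, which carries the Scianna antigens, at 0.51 (adjusted p = 0.000119 by edgeR). The glucose transporter SLC2A1 was higher at 0.40 and TMOD1, which caps the slow-growing end of actin filaments, at 0.25, the latter losing its call without sh-luc library 2 or 3 or sh-lncRNA-IIRX library 3 (adjusted p of at least 0.0611 by edgeR). The third adducin gene, ADD2, at 0.05 (adjusted p = 0.670 by edgeR), did not pass.

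SMIM1, the small protein of the Vel group, fell: it was at 17.7, 13.3 and 12.9 TMM-scaled CPM in sh-luc and at 9.91, 8.24 and 8.67 in sh-lncRNA-IIRX, with a log2 fold change of −0.71 (SE 0.13, edgeR adjusted p = 0.000396). CD55, a complement regulator that carries the Cromer antigens, was at 262, 254 and 251 against 146, 166 and 166, with a log2 fold change of −0.68 (SE 0.078, edgeR adjusted p = 6.07e-06). The groups did not overlap for either, and were further apart than the spread within them for CD55 but not for SMIM1. KCNN4, a calcium-activated potassium channel, was at −0.51 (adjusted p = 0.00723), EMP3, the protein of the MAM group, at −0.50 (adjusted p = 0.000278), and ACHE, acetylcholinesterase, which carries the Yt antigens, at −0.46 with 50 to 80 reads in a library (adjusted p = 0.0399 by edgeR). ABCB6, the porphyrin transporter of the Lan group, was at −0.42, BCAM, the Lutheran protein, at −0.38 and CD151, the tetraspanin of the Raph group, at −0.28. Several of these calls were fragile: ACHE kept its call in 1 of 6 fits with a library left out, without sh-lncRNA-IIRX library 1, and lost it in the others (adjusted p 0.0575 to 0.118) and with DESeq2 (adjusted p = 0.111). BCAM kept it in 2 of 6, without sh-luc library 2 or sh-lncRNA-IIRX library 1 (lost at 0.0806 to 0.163). KCNN4 lost it without sh-luc library 1 (adjusted p = 0.0524) and CD151 without sh-luc library 3 (adjusted p = 0.0521), all by edgeR except where DESeq2 is named. With total reads the list had 25 genes higher and 3 lower (CD55, EMP3 and SMIM1), so that the number of lower genes, like that of the members, rests on the scaling. ABCB6 (−0.18, adjusted p = 0.0827) and KCNN4 (−0.27, adjusted p = 0.139 by edgeR) were among those that lost their call there. With the trends on GC content and coding length removed, 14 genes of the list were higher and 10 lower. Values under that setting are not given here for list genes that are not members, SMIM1 among them.

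Of the 60 genes, 9 had too few reads to be tested: ACKR1, CD44 and SLC14A1, which carry the Duffy, Indian and Kidd antigens, had 0 reads in all 6 libraries, and ART4, XG, FUT1, A4GALT, B3GALNT1 and GCNT2 had at most 14 reads in any library. Sums for these and for the member genes hold only rows whose accession was matched to a symbol, and may miss others. At this depth 3 reads correspond to 0.0953 to 0.143 RPKM for a row of 1 kb, which is the limit that a count of 0 allows, for counting error only.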

How the data were processed

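Total RNA of 6 K562 cultures, 3 with sh-lncRNA-IIRX and 3 with sh-luc, was sequenced. The authors trimmed and masked the reads, mapped them to hg38 and counted them per RefSeq protein accession. The submitters' processing notes name CASAVA 1.8, Trimmomatic 0.32, Bowtie2 2.1.0 and SAMtools 0.1.19. How reads that match several accessions were counted is not given in the sources used here. The deposited values are read counts without normalization, and the RPKM deposited by the authors were checked to equal counts relative to row length and to the column total. The authors' table of the comparison (fold changes, p-values and q-values) was not used. The methods call the targeted RNA lncRNA-IUR-5 where the labels say lncRNA-IIRX, and groups followed the labels.

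Symbols were matched by accession to RefSeq genes (GRCh38.p14) for 64.7% of rows, holding 84.4% of reads, and other rows stayed single. Row lengths were multiples of 3 for 99.8% of rows, so they are coding lengths. Counts were summed per gene, and genes with a mean of at least 10 summed reads and accessions with a mean of at least 1 RPKM were tested with edgeR 4.0.16 in R 4.3.3 (TMM, quasi-likelihood, two-sided, Benjamini-Hochberg over all rows, threshold 0.05), after tests on simulated data. Accessions were compared with the rest of their gene by diffSpliceDGE. Alternatives were a replicate block, a series term, each library left out, DESeq2 1.42.0, its size factors, total reads, other minimums, a single accession per gene, and limma 3.58.1 on log2(RPKM + pseudocount), the pseudocount being 0.01, 0.1 or 1. Removal of GC and length trends (mgcv 1.9.3), rows with a symbol only, and summing libraries 2 and 3 were added after the data were seen, as were the ratios. All members were named, and of the list every called gene could be, with the 6 largest rises and falls, and set partners whatever their value. MPP1 and the untested list genes were named in addition, after their values were seen. A few listed genes are not reported here. The members and lists were chosen with earlier results of these data known.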

Additional observations from a re-analysis of the deposited data

How the results depend on the processing

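XK and EPB41 kept their direction and passed in all 17 alternatives fitted. ANK1 passed with the replicate block and with the series term (0.24 in each), total reads (0.48), no minimum (0.24), a minimum of 100 reads (0.29) and rows with a symbol only (0.27). KEL lost its call with total reads (−0.014), the stricter minimum (−0.21), rows with a symbol only (−0.23) and libraries 2 and 3 summed (−0.26), and GYPB with total reads (−0.086), trends removed (−0.071) and libraries summed (−0.36). GYPC lost it with total reads (−0.12) and trends removed (−0.023), RHAG with libraries summed (0.28), and GYPE passed with total reads (0.39) and trends removed (0.46). With libraries summed, 3 members and 15 list genes were called, from fewer samples. Genes called were 5053 among rows with a symbol and 4759 with trends removed, where fewer rows were tested. Member accessions called were 11 with DESeq2, whose cause was not tested, and 8 of the 15 left at a minimum of 5 RPKM, where 7356 accessions were called in all. With the series term, 385 accessions differed from the rest of their gene. With limma on RPKM, which scales to total reads, 20 member accessions were higher and 1 lower with each pseudocount.

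Leaving out 1 library gave 0.15 to 0.32 for ANK1, −0.39 to −0.23 for GYPB and −0.33 to −0.18 for KEL, 5 to 6 members, 12 to 15 member accessions, 19 to 26 list genes, and 149 to 209 accessions that differed from their gene. The short ANK1 accession NP_001135917.1, with 18 to 39 reads, had a value of 0.0049. It reversed with the replicate block (−0.0027), the series term (−0.0024), DESeq2's size factors (−0.0038) and no minimum (−0.051). It also reversed without sh-luc library 2 (−0.15), sh-luc library 3 (−0.10) or sh-lncRNA-IIRX library 3 (−0.14). Over all fits with a library left out it ran from −0.15 to 0.33. With total reads NP_000411.1 of KEL (0.0051) and XP_011530206.1 of GYPB (0.0024) reversed. The cause was not tested.

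The shared numbers were not shown to pair the libraries. Deviations of libraries 1, 2 and 3 correlated at 0.48, 0.18 and −0.010 with the same number. Sh-luc library 2 correlated at 0.43 with sh-lncRNA-IIRX library 3. Deviations from a group mean cancel within the group, so the correlations depend on one another and cannot settle the pairing. The 4 pairs across the label series correlated at −0.44 to −0.13. With the replicate block 12555 rows were called in place of 10327, and 7 members. With the series term 13242 rows were called, and 7 members.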
